A study of Mus musculus with 33 samples.

Results

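The genes described here are those that copy DNA and divide cells, taken by name from 2 RNA-seq tables of the mouse olfactory system. A gene was a member when its symbol began with Mcm, Cdc, Orc or Rfc followed by a digit, or with Cenp, Ccna, Ccnb, Ccne, Aurk, Bub, Gins, Pola or Pole, or was Mki67, Top2a, Pcna, Birc5, Rrm2 or Ube2c. This gave 100 members among 15988 genes: 98 in the table of whole tissue, 91 in the table of sorted neurons and 89 in both, all of which passed the filter on low values. The rule works on letters, so 24 members carry a division-like name and another job, such as the GTPase Cdc42 and its effectors. The other 76 are called core members and were put into 6 groups by their known role.

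The study concerned the part of the DNA methyltransferase Dnmt3a in neurons that have stopped dividing. All mice were 3 weeks old and were Dnmt3a +/+ (WT), Dnmt3a +/- (Het, heterozygous null) or Dnmt3a -/- (KO, homozygous null). One table holds mature olfactory sensory neurons (mOSN) sorted by flow cytometry (the label used for the sort is not given in the sources used here), as 1 of the authors' pooled values per genotype from 2 libraries each. The other holds whole main olfactory epithelium (MOE) from mice of each genotype exposed for 60 min to 80 µL of water or of odor, equal volumes of octanal, acetophenone and amyl acetate, with 1 library per genotype and exposure. Values are RPKM, reads per gene length and library depth as the authors scaled them. In each pair of MOE values below, water stands first and odor second. The MOE libraries held 9410063 to 17639584 reads, recovered from the values. All MOE libraries and both KO mOSN libraries were made with the NuGEN kit, both WT mOSN libraries with ScriptSeq and the Het mOSN libraries with 1 of each, so that kit and genotype cannot be told apart in mOSN. The targeted gene Dnmt3a had MOE values of 84.4 and 89 (WT), 50.3 and 66.6 (Het) and 56.1 and 48.3 (KO), and mOSN values of 175 (WT), 119.9 (Het) and 56.2 (KO). In both tables all KO and Het values lay below those of WT.

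A cell that is about to divide loads the MCM helicase (Mcm2 to Mcm7) onto origins that the origin recognition complex (Orc) and Cdc6 mark, and then fires those origins with Cdc7, Cdc45 and the Gins complex. Polymerases alpha and epsilon copy the strands, helped by the clamp Pcna and its loader Rfc. Cyclins A, B and E drive the phases, the Aurora kinases and Bub proteins supervise the spindle, the Cenp proteins build the kinetochore on which chromosomes are pulled, and the anaphase-promoting complex (APC/C) with Cdc20 and Ube2c ends mitosis. The olfactory epithelium keeps making neurons after birth from basal stem cells and dividing precursors, whereas the mature sensory neuron has left the cell cycle for good.

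Most core members had a lower RPKM in sorted mature neurons than in the whole epithelium. Over the 68 core members in both tables, the median difference between mOSN and MOE was -0.78 on the log2(RPKM + 0.5) scale, or 58.3% of the MOE level, whereas the median over all 13356 shared genes was -0.03. The 21 members with another job had a median of -0.02. By genotype the core median was -0.77 (WT), -0.88 (Het) and -0.88 (KO). In KO, where both tables used the same kit, 31 of 68 core members were at least 2-fold lower in mOSN, beside 21.5% of all shared genes. A lower value by at least 2-fold in all 3 genotypes was seen for 18 core members (26.5%) and for 21 of the 89 members, beside 15.6% of all shared genes. All 3 mOSN values lay below all 6 MOE values for 34 core members (50%), against 28.6% of all shared genes. The opposite order, all 3 mOSN values above all 6 MOE values, was found for 5 core members and 24% of all shared genes, and no core member was at least 2-fold higher in all 3 genotypes, beside 8.83% of all shared genes. The tables were normalized separately, so these differences were not tested. In bulk RNA, fewer cells of a type and less RNA per cell cannot be told apart.

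**Figure D1:**
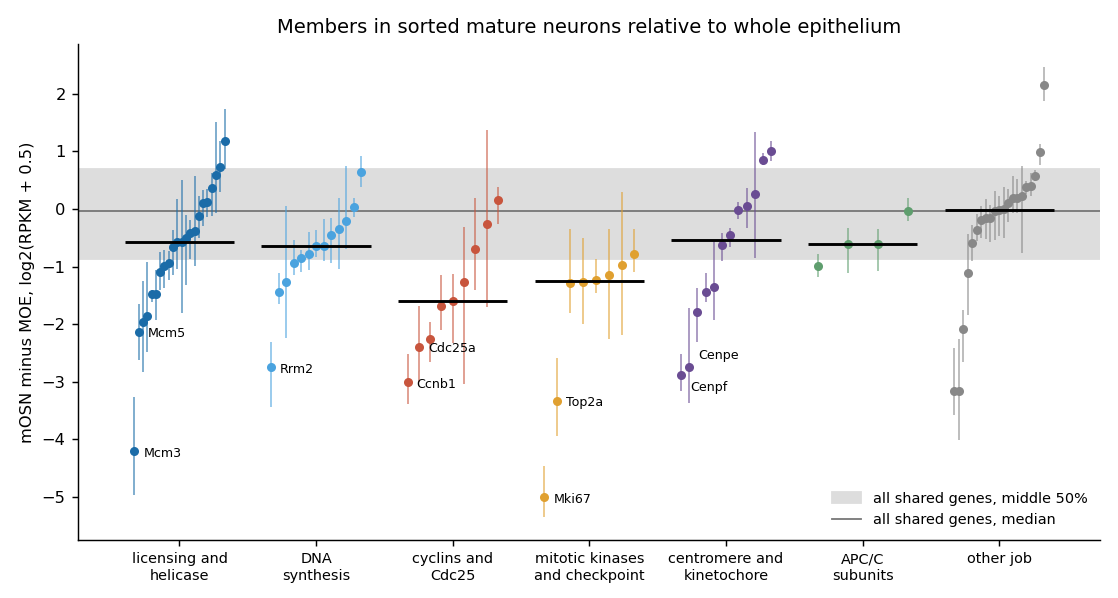
Difference between mOSN and MOE, log2(RPKM + 0.5), for the 89 members in both tables, by role group; points are means of the 3 genotypes, coloured lines span the genotypes, black bars are group medians, and the grey band holds the middle 50% of all shared genes. Mki67, Mcm3 and Top2a lie lowest, and the cyclin and mitotic groups have the lowest medians.

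The sorted cells carried the marks of mature neurons. The 10 mature neuron markers (Omp, Cnga2, Adcy3 and others) had a median difference of 2.24 between mOSN and MOE, and the 6 markers in both tables, of 8, of globose basal cells and neuronal precursors, the dividing cells of the tissue, one of -2.93. By genotype the mature neuron median was 2.13 (WT), 3.25 (Het) and 1.29 (KO). The 7 sustentacular (supporting cell) markers had a median of -5.34 and the 8 immature neuron markers one of 0.17. MOE as dissected also held markers of cells outside the neuronal lineage, some of which divide: the 5 granulocyte and myeloid precursor markers in both tables, of 9, had a median of -3.90 and the 5 erythroid precursor markers, of 6, one of -2.74. Summed over those 5 genes, the granulocyte level was 49.4 to 88.7 in mOSN and 574 to 2663 in MOE. Their part in the differences of the members was not tested.

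Promoters of a few members are shown because some short motifs in them were more frequent among core members than among all genes. RefSeq promoters (GRCm38.p6) matched 86 of the 100 members by symbol (not Aurkaip1, Aurkb, Ccna2, Ccne2, Cdc23, Cdc25c, Cdc34-ps, Cdc42bpg, Gins1, Gins2, Gins4, Mcm4, Pole and Rfc2), and the 250 bases before the first listed start were searched on both strands for CCAAT (bound by NF-Y), for TTTGAA (the cell cycle homology region, CHR) and for an E2F motif (TTTCCCGC, TTTGGCGC, TTTCGCGC or TTTGCCGC). Below are the 200 bases before the start, 5′ to 3′ on the gene's strand, with those motifs, in either orientation, in capitals. Mki67 (chr7:135716380-135716579, minus strand), Top2a (chr11:99024190-99024389, minus strand), Cdc20 (chr4:118437344-118437543, minus strand) and Ube2c (chr2:164769729-164769928, plus strand) stand for the mitotic group, Mcm7 (chr5:138171884-138172083, minus strand) and Mcm6 (chr1:128359706-128359905, minus strand) for the helicase, Rfc3 (chr5:151651209-151651408, minus strand) for synthesis and Pole3 (chr4:62525015-62525214, minus strand) for a member with none of the motifs. Not all of these genes were lower in mOSN: Cdc20 has no mOSN value, and the mOSN values of Ube2c and Pole3 overlapped those of MOE.
Mki67: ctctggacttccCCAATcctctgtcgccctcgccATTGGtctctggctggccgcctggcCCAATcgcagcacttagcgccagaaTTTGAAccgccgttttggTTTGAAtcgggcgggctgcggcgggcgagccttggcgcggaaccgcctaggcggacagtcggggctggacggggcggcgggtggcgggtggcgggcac
Top2a: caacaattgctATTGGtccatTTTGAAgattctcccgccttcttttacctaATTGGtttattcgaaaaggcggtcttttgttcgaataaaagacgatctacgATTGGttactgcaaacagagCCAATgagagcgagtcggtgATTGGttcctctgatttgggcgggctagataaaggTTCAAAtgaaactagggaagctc
Cdc20: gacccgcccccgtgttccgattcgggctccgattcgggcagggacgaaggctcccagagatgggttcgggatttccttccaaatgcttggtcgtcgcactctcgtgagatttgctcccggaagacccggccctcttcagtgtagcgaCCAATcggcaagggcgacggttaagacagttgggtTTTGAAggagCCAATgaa
Ube2c: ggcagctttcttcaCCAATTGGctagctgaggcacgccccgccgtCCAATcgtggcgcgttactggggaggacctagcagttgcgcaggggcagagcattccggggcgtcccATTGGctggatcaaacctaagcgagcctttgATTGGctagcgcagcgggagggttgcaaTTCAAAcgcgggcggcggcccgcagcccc
Mcm7: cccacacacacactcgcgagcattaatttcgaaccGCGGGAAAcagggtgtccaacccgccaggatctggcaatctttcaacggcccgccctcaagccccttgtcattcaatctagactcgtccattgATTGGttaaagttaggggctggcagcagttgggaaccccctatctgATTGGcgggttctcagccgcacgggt
Mcm6: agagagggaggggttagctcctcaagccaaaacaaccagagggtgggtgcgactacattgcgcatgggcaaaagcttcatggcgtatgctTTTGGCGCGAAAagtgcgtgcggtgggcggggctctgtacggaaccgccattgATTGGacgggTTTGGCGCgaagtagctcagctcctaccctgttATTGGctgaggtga
Rfc3: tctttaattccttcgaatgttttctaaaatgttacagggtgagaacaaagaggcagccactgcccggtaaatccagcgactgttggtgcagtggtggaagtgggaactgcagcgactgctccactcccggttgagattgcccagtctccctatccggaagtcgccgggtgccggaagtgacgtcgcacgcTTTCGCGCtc
Pole3: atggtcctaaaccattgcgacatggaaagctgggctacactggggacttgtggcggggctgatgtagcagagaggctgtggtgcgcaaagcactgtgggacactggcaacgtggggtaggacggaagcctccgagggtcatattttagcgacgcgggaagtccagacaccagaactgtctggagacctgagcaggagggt

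Each of the 4 mitotic stretches holds at least 2 CCAAT boxes, forward or as ATTGG, and at least 1 CHR (TTTGAA or TTCAAA). In Ube2c the first pair of CCAAT boxes overlaps on opposite strands. Mcm7 and Mcm6 hold CCAAT boxes with an E2F motif. In Mcm6 the first E2F motif overlaps another on the opposite strand, and each gene was counted once. The Rfc3 stretch holds an E2F motif close to the start, and none of the motifs is in the Pole3 stretch. Rfc3 was also counted with a CCAAT box, which lies within the 250 bases searched but outside the 200 shown. A CCAAT box was present in 40 of 65 core promoters (61.5%), in 5 of 21 promoters of members with another job, in 34.5% of all 27025 promoters and in 36.2% of the 9857 promoters of genes in both tables. CHR was present in 5 of 9 mitotic promoters (Bub3, Cdc20, Mki67, Top2a, Ube2c, all with a CCAAT box too), against 16.3% of all promoters and 10.9% of those of genes in both tables. Over all core promoters CHR was in 12 of 65 (18.5%), near the share of all promoters. It was also in 5 of 21 promoters of members with another job, in 3 of 18 licensing and 3 of 18 centromere promoters, in 1 of 6 cyclin promoters and in no synthesis promoter. A CCAAT box was in 5 of 6 cyclin promoters, the group with the lowest median in mOSN. CCAAT and CHR together occurred in 12 of 65 core promoters (18.5%), in 5.73% of all promoters and in 4.09% of those of genes in both tables. The E2F motif was in 7 of 18 licensing promoters (Cdc6, Gins3, Mcm5, Mcm6, Mcm7, Orc1, Orc3) and 3 of 11 synthesis promoters (Pola1, Pole4, Rfc3), in 3 of 18 centromere promoters, in 1 of 6 cyclin promoters, in none of 9 mitotic ones, and in 1.91% of all promoters and 3.22% of those of genes in both tables.

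Core members with a CCAAT box had a lower median than those without, with widely overlapping ranges. The median difference between mOSN and MOE was -1.25 over the 34 core members with a CCAAT box and -0.34 over the 23 without. Values ran from -5.0 to 0.74 with a box and from -1.43 to 1.18 without. Cenpj, Cenpi, Birc5, Cdc16, Rfc5 and Cenpb were below all MOE values without a box (-1.43, -1.35, -1.15, -1.0, -0.64 and -0.45). In KO alone Cenpi was at -0.56 and Birc5 at -0.35. Mcm9 was above all MOE values with a box. Over all genes in both tables the corresponding medians were -0.07 (3572 genes) and -0.02 (6285 genes). For CHR the core medians were -0.97 over 9 members with it and -0.64 over 48 without, and for the E2F motif -0.66 over 13 and -0.73 over 44. These splits are descriptions of the listed windows, with no test, and a motif match is not a measured binding site.

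**Figure D2:**
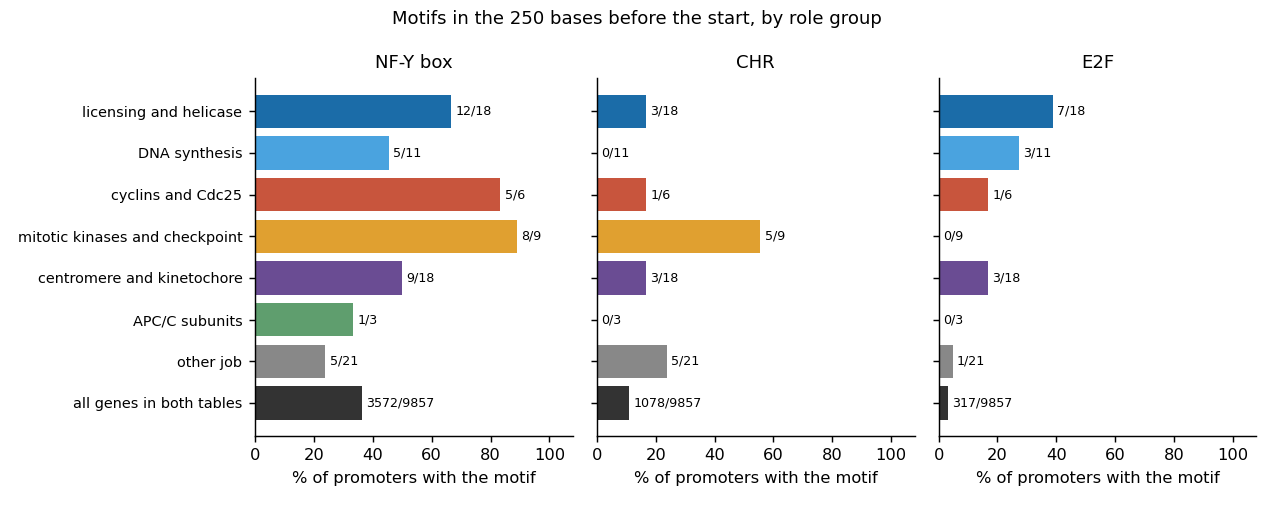
Share of promoters holding the NF-Y box, CHR or E2F motif in the 250 bases before the start, in %, by role group, with counts beside each bar; the lowest bar is all genes in both tables. The NF-Y box and CHR are most frequent in the mitotic group and E2F in the licensing group.

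Of the licensing and helicase genes (22 members, median -0.57), the core helicase stood lowest. Mcm3, a helicase subunit, had MOE values of 190.4 and 203 (WT), 209 and 412 (Het) and 177 and 179.7 (KO), and mOSN values of 5.83 (WT), 13.3 (Het) and 18.2 (KO). All mOSN values lay far below all MOE values, at 5.41% of MOE or a difference of -4.21 on the log2 scale. Mcm5 had 31.1 to 95.6 in MOE and 5.99 to 13.7 in mOSN (-2.14). Mcm6 had 28.2 to 69.4 and 6.94 to 14.4 (-1.96). Mcm2 and Mcm7 were also below all MOE values, at -1.86 and -1.48. The remaining helicase subunit did not share this. Mcm4 had MOE values of 42.1 and 41.5 (WT), 49.8 and 73.8 (Het) and 42.3 and 43.3 (KO), and mOSN values of 49.2 (WT), 42.4 (Het) and 40.4 (KO), which overlap. Its mOSN level was 92% of MOE, while the other 5 subunits of the same ring stood at 5.41% to 35.9%.

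The origin recognition genes did not move as a group. Orc4 had MOE values of 40.8 and 30.8 (WT), 33.8 and 12.5 (Het) and 32.2 and 33.7 (KO), and mOSN values of 77.3 (WT), 70.4 (Het) and 53.6 (KO). Every mOSN value was above every MOE value (1.18). Orc2 differed by 0.10, Orc3 by -0.51, Orc5 by -0.42 and Orc1, a member with few reads, by -0.66. All 3 mOSN values of Orc6 lay below MOE, with 192 to 305 in MOE and 92.7 to 147 in mOSN (-0.99). Of the firing factors, Cdc45 differed by 0.12 and Cdc7 by 0.36, with overlapping values. Gins3 (-1.47) and Gins4 (-0.94), 2 subunits of the complex that joins Cdc45 to the helicase, were below all MOE values. Mcm8 and Mcm9, relatives of the helicase with roles in recombination, parted, at -1.09 and 0.74. Mcm9 had 29.9 to 51.6 in MOE and 59.6 to 81 in mOSN, without overlap.

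Among the 13 DNA synthesis genes (median -0.64), Rrm2, the regulated subunit of ribonucleotide reductase, was lowest. It had MOE values of 51.3 and 60.9 (WT), 67 and 117 (Het) and 39.2 and 55.3 (KO), and mOSN values of 10.8 (WT), 7.75 (Het) and 7.79 (KO). The mOSN level was 14.9% of MOE (-2.75), with no overlap. Rfc3, of the clamp loader, had 36.6 to 47.6 in MOE and 14.1 to 17.8 in mOSN (-1.44). Pcna, the clamp, which also serves DNA repair, had MOE values of 172 and 175 (WT), 187 and 212 (Het) and 173 and 139.8 (KO), and mOSN values of 105 (WT), 119 (Het) and 72.5 (KO). Its values did not overlap, yet mOSN kept 55.4% of the MOE level (-0.85). The histone-fold subunits of polymerase epsilon were not lower: Pole3 differed by 0.03 and Pole4 by 0.64, with Pole4 at 37.2 to 45.5 in MOE and 52.6 to 79.7 in mOSN. Rfc2, another clamp loader subunit, had 421 to 709 in MOE and 246 to 405 in mOSN (-0.93). Its MOE values rest on 285 to 675 reads, and its reads per RPKM unit were 0.0753 of those of Mki67 and those of Gins4 0.135, so the lengths behind the values may be very unequal and levels were not ranked between genes.

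The cyclin and Cdc25 group had the lowest median (-1.60, 9 members). Ccnb1, the cyclin of mitotic entry, had MOE values of 25.5 and 15.7 (WT), 28.5 and 27.3 (Het) and 20.2 and 16.6 (KO), and mOSN values of 1.47 (WT), 2.78 (Het) and 2.77 (KO). The mOSN level was 12.4% of MOE (-3.01), without overlap. Of the Cdc25 phosphatases, which activate the cyclin-dependent kinases, Cdc25a had 27.1 to 50.3 in MOE and 3.88 to 8.43 in mOSN (-2.39), and Cdc25b differed by -1.69. Cdc25c overlapped MOE (15 to 26.9), with mOSN values of 15.8 (WT), 2.08 (Het) and 12.8 (KO). Ccna2, the cyclin of S phase and G2, had 39.9 to 86 in MOE and 9.49 to 16.7 in mOSN (-2.25). Ccne2 differed by -1.6, while its relative Ccne1 (-0.26) overlapped. Ccna1, which rests on 4 to 27 reads per MOE library, differed by 0.16. Ccnb2 overlapped too (-0.69), with mOSN values of 34.8 (WT), 22.8 (Het) and 7.99 (KO).

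In the mitotic group (8 members in both tables, median -1.25), Mki67, the coat protein of mitotic chromosomes that is used as the standard mark of cycling cells, had MOE values of 890.1 and 632 (WT), 701 and 1017 (Het) and 577 and 744 (KO), with a mean of 760.0 ± 165 (SD, 6 libraries). Its mOSN values were 17.9 (WT), 22.5 (Het) and 29.4 (KO). The mOSN level was 3.12% of MOE (-5.0), the lowest of all members. Top2a, the topoisomerase that untangles sister chromatids, had MOE values of 103 and 78.4 (WT), 89.8 and 129.6 (Het) and 74.9 and 63.7 (KO), and mOSN values of 7.7 (WT), 6.55 (Het) and 11 (KO). None overlapped (-3.33, 9.94% of MOE). Birc5 (survivin), a subunit of the Aurora B complex, had MOE values of 16.3 and 11.5 (WT), 21.9 and 13.2 (Het) and 15.6 and 11.3 (KO), and mOSN values of 2.48 (WT), 9.2 (Het) and 10.3 (KO). The mOSN WT value was far below MOE, and those of Het and KO came close to its lower end (-1.15 over the 3). Ube2c, the ubiquitin-conjugating enzyme of APC/C, had MOE values of 15.7 and 26.2 (WT), 26.5 and 41.7 (Het) and 23 and 12.8 (KO), and mOSN values of 9.64 (WT), 6.95 (Het) and 21.3 (KO). The ranges overlapped (-0.97). Aurka, Aurkb and Bub1b were below all MOE values, at -1.27, -1.28 and -1.23. Bub3, a spindle checkpoint protein, was below all MOE values by a smaller step, at 360.5 to 599.7 in MOE and 188 to 343 in mOSN (-0.78). Bub1 and Cdc20 had a value in the MOE table only, at 13.2 to 21.8 and 12.3 to 42.7.

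**Figure D3:**
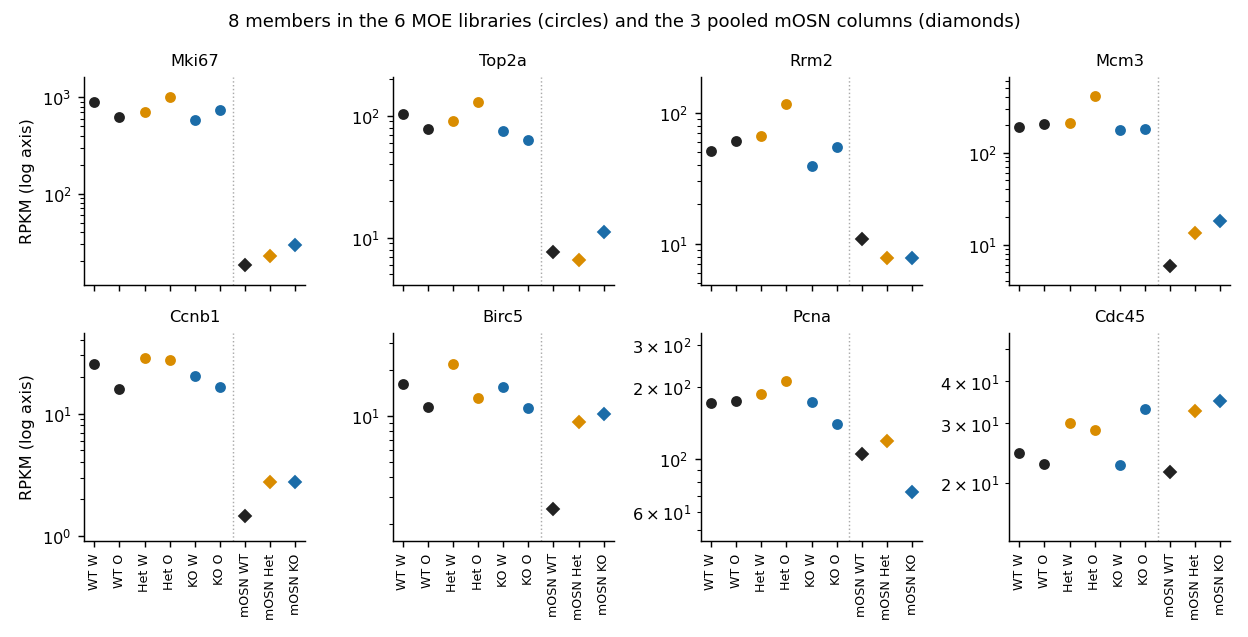
RPKM (log axis, own scale per panel) of 8 members in the 6 MOE libraries (circles; W water, O odor) and the 3 pooled mOSN columns (diamonds), coloured by genotype. Mki67, Top2a, Rrm2, Mcm3 and Ccnb1 are well separated between the tables, Birc5 and Pcna less so, and Cdc45 overlaps.

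The centromere and kinetochore genes went both ways. Cenpf and Cenpe, a mitotic kinetochore protein and a kinetochore motor that appear only around division, had 38.9 to 61.8 and 54.7 to 74.2 in MOE and 5.24 to 6.58 and 5.53 to 17.4 in mOSN (-2.88 and -2.74). Cenpa, the histone of centromeres, differed by -1.78, Cenpj, a centriole protein, by -1.43 and Cenpi by -1.35. Cenpb, which binds centromeric DNA repeats, was nearer to MOE (-0.45). Cenpc1, a base of the inner kinetochore, had MOE values of 147 and 107 (WT), 93 and 79.3 (Het) and 79 and 118 (KO), and mOSN values of 215 (WT), 149.8 (Het) and 190.0 (KO). Each mOSN value was above each MOE value (0.85). Cenpv was likewise higher, at 27.4 to 41.6 in MOE and 60.3 to 74.1 in mOSN (1.01). The group's median over 12 members was -0.54. Cenph, Cenpm, Cenpn, Cenpp and Cenpw had values in the MOE table only and Cenpk in the mOSN table only. The 4 APC/C subunits, a complex with known work in neurons after division, had a median of -0.61: Cdc16, below all MOE values, differed by -1.0, Cdc26 by -0.61, Cdc27 by -0.61 and Cdc23 by -0.03.

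Of the replication and mitosis genes outside the name rule, the mitosis list was the lower one in mOSN. Of 39 other mitosis genes in both tables, 18 were at least 2-fold lower in mOSN in all 3 genotypes (median -1.42), beside the 15.6% of all shared genes; Melk, a mitotic kinase, had 35.7 to 62.4 in MOE and 1.1 to 4.5 in mOSN (-4.03), and Pttg1 (securin) was the 1 gene at least 2-fold higher (2.23). Of 20 other replication genes, 5 were at least 2-fold lower in all 3 genotypes (median -0.29). All 3 mOSN values lay below all 6 MOE values for 6 of these 20 (30%), near the 28.6% of all shared genes. Rpa3, a subunit of the single-strand binding complex, stood at 0.77. The difference between these lists was not tested.

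No member passed the test for odor in MOE. Over the 98 members, none had an adjusted p under 0.05 for odor against water (limma with genotype as block, 2 residual degrees of freedom), beside 0.0137% of all 14602 genes (2 genes), with a smallest adjusted p of 0.88. With limma-voom on the recovered reads no member passed either, here or in the 3 comparisons that follow. At an unadjusted p under 0.05 there were 3 members, 2 higher and 1 lower, beside 4.87% of all genes. The core median was -0.04 with 31 members higher and 44 lower, and the median of all genes 0.00. Rrm2, with the MOE values above, was higher with odor in each genotype, by 0.51 (SE 0.19, unadjusted p = 0.0385, adjusted p = 0.88) on the log2 scale in limma. Its largest step was in Het. Cdc42ep4, an effector of Cdc42, was higher by 0.46 (SE 0.17, unadjusted p = 0.0369, adjusted p = 0.88) in limma. Orc6 had MOE values of 305 and 192 (WT), 301 and 194 (Het) and 246 and 233 (KO). It was lower with odor in each genotype, with a log2 difference of -0.46 (SE 0.18, unadjusted p = 0.0423, adjusted p = 0.88) in limma. Of the other members with the same direction in all 3 genotypes and the smallest p, Pole (0.68), Mcm3 (0.36) and Cenpv (0.30) were higher and Cdc42ep3 (-0.32), Birc5 (-0.55), Cenpp (-0.57) and Cenpn (-0.47) lower, none past the threshold. Without the Het pair Mcm3 was at 0.059, and without the KO pair Pole was at 0.33 and Cenpn at -0.27. With limma-voom Cenpv was at 0.19. In simulated tables of this layout the test called 32% of the 50 genes shifted by a log2 of 1 and 92% of the 50 shifted by 2. The shares were 10% and 76% for KO against WT, 14% and 76% for Het against WT and 8% and 74% for the KO odor effect. Among genes left unshifted, 6 were called for odor, 10 for KO, 8 for Het and 51 for the KO odor effect, so that its calls hold many false ones.

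No member passed the test for loss of Dnmt3a in MOE. For KO against WT (treatment as block), 0 of 98 members and 0% of all genes had an adjusted p under 0.05 in limma. At an unadjusted p under 0.05 there were 2 members, both lower, beside 2.23% of all genes. The core median was -0.10 with 48 members lower and 27 higher, and that of all genes -0.01. Ccne1, a cyclin of S-phase entry, had MOE values of 18 and 11.8 (WT), 7.32 and 13.8 (Het) and 5.59 and 2.85 (KO). Both KO values lay below both WT values, with a log2 difference of -1.74 (SE 0.53, unadjusted p = 0.0188, adjusted p = 1.00) in limma, on 11 to 82 reads per library. Pole2, a polymerase epsilon subunit, had 26.9 and 25 (WT), 20.9 and 25 (Het) and 15 and 15.2 (KO). The KO values again lay below WT, with a log2 difference of -0.76 (SE 0.29, unadjusted p = 0.0437, adjusted p = 1.00) in limma, on 20 to 57 reads. Ccna2 (-0.51), Cenpw (-1.23) and Cenpm (-0.80) were next among the lower, and Cdc42ep5 (0.83), Cdc42ep2 (0.79), Mcm8 (0.59), Cdc40 (0.40) and Ccna1 (1.05) first among the higher. With water alone and odor alone, in that order, Cenpw was at -2.09 and -0.37, Cdc42ep5 at 0.34 and 1.31, Cdc42ep2 at 1.26 and 0.31 and Cdc40 at 0.13 and 0.67. By group, 15 of 17 centromere genes were lower in KO (median -0.24), beside 7525 of all 14602 genes. With water alone 6 of the 17 were higher in KO (median -0.37) and with odor alone 5 (median -0.17). The WT water library held the highest value of 8 of the 17, beside 2194 of all genes, and both KO libraries lay below both WT libraries for 4 of the 17. Both KO libraries lay below both WT libraries for 12 members, all core, beside 13.3% of all genes, and above for 14, beside 12.4%. Both counts are near the background.

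Het against WT, which shares the WT libraries with the comparison above, gave 0 of 98 members and 0% of all genes at an adjusted p under 0.05 in limma. At an unadjusted p under 0.05 there were 4 members (2 higher, 2 lower), beside 6.69% of all genes. Rrm2 was higher by 0.66 (SE 0.23, unadjusted p = 0.0322, adjusted p = 0.71) and Ccna1 by 1.59 (SE 0.57, unadjusted p = 0.0334, adjusted p = 0.71) in limma. Mcm9 was lower, with a log2 difference of -0.65 (SE 0.24, unadjusted p = 0.0365, adjusted p = 0.71), and so was the APC/C subunit Cdc26, with -0.45 (SE 0.17, unadjusted p = 0.0429, adjusted p = 0.71) in limma. Next to these, Cdc42ep5 (0.79), Bub1b (0.68) and Aurka (0.66) were higher and Cdc27 (-0.42), Cdc14a (-0.58) and Orc4 (-0.77) lower. With water alone and odor alone, in that order, Ccna1 was at 2.5 and 0.68, Cdc14a at -0.21 and -0.96 and Orc4 at -0.27 and -1.26, while Rrm2 was at 0.38 and Cdc27 at -0.24 with water alone. Both Het libraries lay above both WT libraries for 23 members, beside 19% of all genes, and below for 10, beside 18%. The core median was 0.18, and 10 of 10 mitotic genes were higher (median 0.29), beside 7677 of all 14602 genes. With water alone 6 of the 10 were higher (median 0.09) and with odor alone 10 (median 0.70). Beside this, all 10 mature neuron markers were lower in Het than in WT (median -1.13), and their part in the values was not tested.

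The Het median differed between the exposures, a difference that was not tested. With water alone the core median of Het over WT was -0.01, and with odor alone 0.26. For Mcm2 to Mcm7 the median was 0.06 with water and 1.05 with odor. All 6 had their highest value in the Het odor library, by a median of 0.95 on the log2 scale over the mean of the other 5 libraries. Mcm3, whose MOE values are given above, was at 412 there (1653 reads) and between 177 and 209 elsewhere. Mcm5 had 40.4 and 38.4 (WT), 40 and 95.6 (Het) and 48.6 and 31.1 (KO). It stood apart in the same library. Mcm2 had 59.2 and 89.7 (WT), 72.1 and 135 (Het) and 66.8 and 60.3 (KO). Its next highest value was in WT odor. Mcm2 to Mcm7 were singled out as a complex after their values were seen.

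The same library held the highest value for 7 of 10 mitotic genes, 4 of 9 cyclin and Cdc25 genes, 4 of 13 synthesis genes and 1 of 17 centromere genes. Over all core members this was 24 of 75, close to the 30.6% of all genes. Rrm2 (1.12 over the other 5), Aurkb (1.06), Ube2c (1.04), Cdc20 (1.02), Cdc25b (1.0) and Cenpt (0.96) were high there too. Orc4 went the other way, with its lowest value there. Of the other pathway genes, 13 of 20 replication and 18 of 40 mitosis genes were highest in that library.

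Markers of other cells moved with it. The summed mature neuron markers were 23335 and 17129.6 (WT), 9647 and 5385 (Het) and 19593 and 26370.0 (KO), lowest in the Het odor library. Summed granulocyte and myeloid precursor markers were 2105 and 5711 (WT), 4320.5 and 7432 (Het) and 4019 and 4360.1 (KO), and summed erythroid precursor markers 1089 and 729 (WT), 822 and 1497 (Het) and 917 and 765 (KO), both highest in the Het odor library. Macrophage markers were also highest there (734, against 295 to 571). Summed horizontal basal, immature neuron, lymphoid and bone and cartilage markers were highest there as well. By gene this held for 3 of 5, 6 of 8, 2 of 6 and 2 of 7, in that order, beside 30.6% of all genes. The sustentacular sum was highest in WT odor (34487, against 32203.5 in Het odor), and 1 of its 7 genes was highest in Het odor. The sum of globose basal and precursor markers was not, at 555 and 515 (WT), 574 and 564 (Het) and 466 and 526 (KO). By gene, however, 4 of these 8 markers were highest in the Het odor library. Their median there was 0.30 on the log2 scale over the mean of the other libraries, beside 0.06 for all genes. With 1 library per genotype and exposure, the part of these cells in the Mcm2 to Mcm7 values was not tested.

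**Figure D4:**
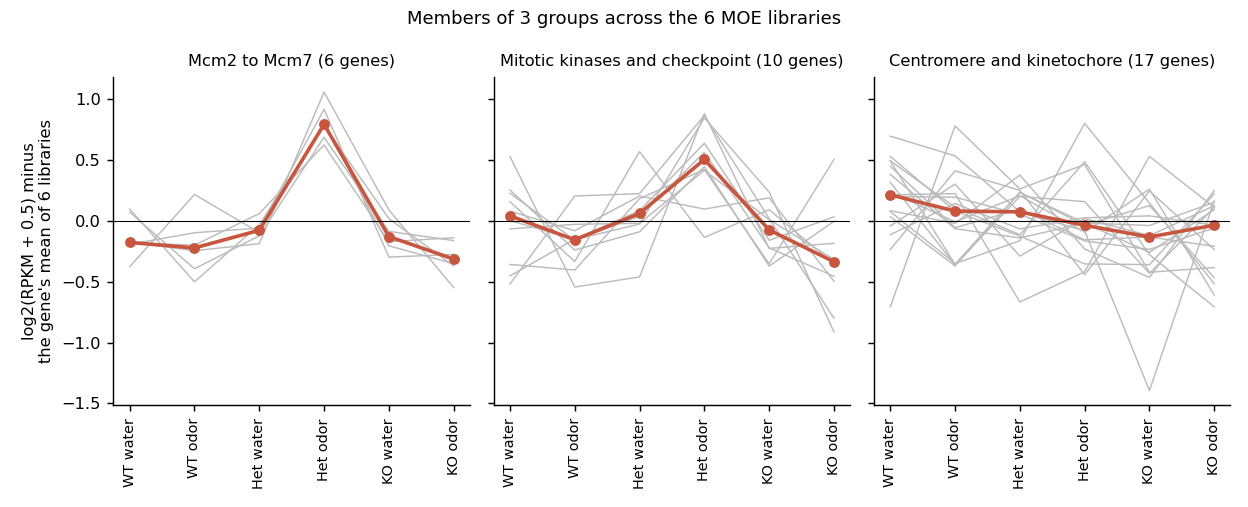
log2(RPKM + 0.5) minus each gene's mean of the 6 MOE libraries, for Mcm2 to Mcm7, the mitotic group and the centromere group; grey lines are genes and the red line is the median. The Het odor library is highest for all 6 helicase genes and 7 of 10 mitotic genes, and the centromere genes show no such peak.

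The odor effect in KO was also compared with that in WT and Het together. No member and 0% of all genes had an adjusted p under 0.05 in limma (1 residual degree of freedom), and 4 members had an unadjusted p under 0.05, beside 7.12% of all genes. Ube2c, with the MOE values given above, was higher with odor in WT and Het and lower in KO, a difference of -1.50 (SE 0.52, unadjusted p = 0.0308, adjusted p = 0.66) in limma. Cdc20, its partner in APC/C, had 23.6 and 21.1 (WT), 23.1 and 42.7 (Het) and 27.8 and 12.3 (KO). Its odor step was downward in KO and WT and upward in Het, with a difference of -1.51 (SE 0.64, unadjusted p = 0.0602, adjusted p = 0.72) in limma, and of -0.99 against WT alone. Cenpc1 differed in the other direction, 0.92 (SE 0.35, unadjusted p = 0.0432, adjusted p = 0.69) in limma. Mcm2 (-0.90), Cdc42ep2 (-1.08) and Cdc42se1 (-0.94) were lower and Cenpw (1.72), Cdc37l1 (0.78), Orc2 (0.62) and Orc6 (0.57) higher. The 6 helicase genes all had a negative difference (median -0.51), which includes the Het odor library, where all 6 were highest. Their median odor step was 0.86 for Het, -0.11 for KO and -0.05 for WT. The KO step lay above the WT step for Mcm4 (0.03 and -0.02), Mcm6 (-0.39 and -0.60) and Mcm7 (-0.08 and -0.47). It lay below the WT step for Mcm2, Mcm3 and Mcm5. The shared negative sign is therefore not a separate finding about KO.

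In sorted neurons the KO over WT medians of core members lay near those of all genes of a like level, and 2-fold lower calls were few. In KO over WT, 17 of 91 members, all core, were at least 2-fold higher, beside 17.5% of all genes. At least 2-fold lower were 5 members, 4 of them core, beside 2.84% of all genes. These 5 became 3 with a pseudocount of 1 and 2 with median-ratio scaling. In Het over WT, which shares the WT column, 6 were higher, beside 6.89%, and 3 lower, beside 2.5%. Below a geometric mean of 10 RPKM, 13 of 30 core members were at least 2-fold higher in KO and 2 lower, beside 2010 and 42 of all 3884 genes. At 10 to 30 RPKM, 4 of 17 were higher and 2 lower, beside 488 and 114 of all 3063 genes. The median KO over WT difference below 10 RPKM was 0.90 for the core members and 1.03 for all genes. At 10 to 30 RPKM it was 0.11 for 17 core members and 0.04 for all genes, at 30 to 100 it was -0.44 and -0.33, and over 100 it was -0.43 for 7 core members and -0.40 for all genes. All 10 mature neuron markers were lower in KO than in WT mOSN (median -0.66). All 4 horizontal basal markers were at least 2-fold higher, with sums of 9.83 (WT) and 77.1 (KO), beside 17.5% of all genes and 2010 of the 3884 below 10 RPKM. So were 3 of 4 lymphoid, 3 of 5 granulocyte and myeloid, 3 of 5 erythroid and 2 of 5 bone and cartilage markers. Fewer were among the others, with 2 of 7 sustentacular, 2 of 6 globose basal and precursor, 1 of 4 macrophage and 0 of 8 immature neuron markers. Of 6 globose basal and precursor markers, 5 were higher and 1 lower (median 0.33). The part of such cells in the member values was not tested. Since kit and RNA input moved with genotype and each genotype has 1 pooled value, no test was made.

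The 17 higher members in KO had KO values of at most 33.2 RPKM. Birc5 was highest by fold (1.86, and 1.7 in Het), from the values above. Aurka had 3.07 (WT), 8.68 (Het) and 11.3 (KO) (1.73). Mcm3 differed by 1.56, Pole2 by 1.53, Gins2 by 1.51, Pola2 by 1.5 and Cdc6 by 1.49. Ccne1 (1.33), Cenpk (1.3) and Ccne2 (1.23) followed. Ccne1 was thus higher in KO in mOSN and lower in KO in MOE. Pole2 had the same opposite signs. The lower members were Ccnb2 (-2.06), Gins1 (-1.63), with 11.3 (WT), 6.99 (Het) and 3.3 (KO), Rfc4 (-1.11), Cenpl (-1.04) and Cdc40 (-1.0). In Het, Ccne2 (1.36), Aurka (1.36), Cdc34-ps (1.36), Mcm3 (1.13) and Mcm5 (1.13) were also at least 2-fold higher and Cdc25c (-2.66), Cdc42ep2 (-1.25) and Mcm6 (-1.0) lower. Cdc34-ps is a pseudogene copy of Cdc34, whose reads the counting may have split. Mki67 in KO mOSN (29.4) was -4.46 on the log2 scale relative to KO MOE, made with the same kit.

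**Figure D5:**
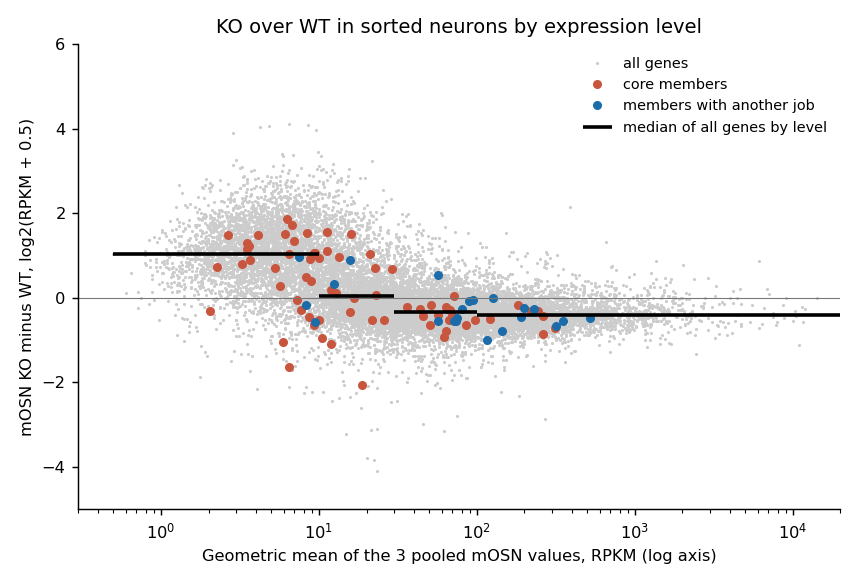
mOSN KO minus WT, log2(RPKM + 0.5), against the geometric mean of the 3 pooled mOSN values (log axis), for all genes (grey), core members (red) and members with another job (blue); black bars are medians of all genes by level. The members lie in the cloud of all genes, high at low levels and slightly negative at high levels.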

How the data were processed

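Total RNA depleted of ribosomal RNA was sequenced from 12 libraries. The authors deposited 2 tables of RPKM values, 1 column per MOE library (14613 genes) and 1 pooled column per mOSN genotype (14751 rows, 7 of them empty and not used). How the mOSN replicates were pooled, the strand setting and the RPKM formula are not given in the sources used here. The builds mm9 and NCBIM37 are named in the submitters' processing notes, as are STAR 2.3.0, featureCounts, DESeq, Picard 1.64 and Bowtie2 2.1, without their roles. MOE values of all 14613 genes (100%) came out as whole numbers of reads once a factor per library and a length per gene were divided out, within a relative tolerance of 1e-07, which gave the reads. On simulated data 98.5% of 14551 genes came back exactly. The other 21 samples of the series were not analysed here.

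Values were taken as log2(RPKM + 0.5), which understates changes of low genes, keeping a gene whose RPKM reached 0.5 in 2 columns. MOE was fitted over all genes by limma 3.58.1 under R 4.3.3 (moderated linear models, trended variance, p-values two-sided and adjusted after Benjamini and Hochberg). The labels tie no library to an animal, and the p-values therefore reflect only how these libraries spread, which may be technical. No limma test was possible in mOSN, and 2-fold counts stand in its place. Motifs were searched in RefSeq promoters (GRCm38.p6), 1 per gene. No coordinates of the authors' build were used. Members, role groups and lists were chosen with earlier results of these data known. Named genes were the 6 fixed symbols, the 2 highest in MOE and the 2 with the lowest and highest mOSN to MOE fold per group, the 5 higher and 5 lower members with the smallest p and the same sign throughout per MOE comparison, and at most 10 per direction at 2-fold or more in mOSN with a value of 5 or more. Overlapping and antisense genes and close copies were not told apart. Alternatives covered pseudocounts, filters, scaling, the mean-variance trend, voom on recovered reads, blocks and left-out libraries.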

Additional observations from a re-analysis of the deposited data

How the results depend on the processing

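No paired analysis was possible because the columns carry no replicate numbers, if pairing by replicate is meant; the odor test does pair water and odor within each genotype, and its count without that block is given here. No member reached an adjusted p under 0.05 in any MOE comparison under any alternative, limma with voom on recovered reads included. The 10 genes named in each comparison kept their direction under every alternative run. They were chosen for the same sign throughout, so leaving out libraries or using 1 exposure alone could not reverse them. For those alternatives the kept direction was fixed by the choice. Genes called over the whole table for odor were 2, and were 1 with median-ratio scaling or no genotype block, 0 without the mean-variance trend, 6 with voom, 4 without the WT pair and 0 without the Het or the KO pair. The core median for odor was -0.13 with voom. For KO against WT it was -0.066 with water and -0.020 with odor alone, and for the KO odor effect against WT alone 0.053; the cause was not tested.

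For mOSN against MOE, a 3-fold rule left 13 members and 10 core members lower. Centring the tables gave a core median of -0.58 and 4 members higher. Alternatives chosen after seeing the data were leaving out the Het odor library (core median -0.71, the same 21 and 18 as counts) and using KO only (35 members and 31 core members lower, 3 higher, median -0.88). In mOSN, the 3-fold rule left 2 members higher and 2 lower in KO and 1 and 1 in Het; a pseudocount of 0.1 gave 10 higher in Het, a pseudocount of 1 gave 3 lower in KO, and median-ratio scaling 2 lower in KO. Mcm2 to Mcm7 stayed highest in the Het odor library under 4 alternatives (median 0.91 to 0.96), also chosen after seeing the data. Depth limits 10 members, which had under 20 reads in at least 1 MOE library.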

Other observations

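Regulators of the cycle, which are no members, were mostly lower in sorted neurons. All 3 mOSN values lay below all 6 MOE values for 13 of 19 regulators (68.4%), against 28.6% of all shared genes. They lay above all 6 for 0 regulators, against 24% of all shared genes. Of 19 regulators in both tables, 6 were at least 2-fold lower in all 3 genotypes (median -0.85), beside 15.6% of all shared genes (median -0.03). Ccnd1, the G1 cyclin, had MOE values of 384 and 469 (WT), 531 and 612 (Het) and 451 and 358 (KO), and mOSN values of 8.83 (WT), 16.5 (Het) and 24.6 (KO). Its mOSN level was 3.44% of MOE. Ccnd2 stood at 9.17%. Rb1, the retinoblastoma protein that holds cells out of S phase, differed by 0.17. E2f1, the factor that Rb1 restrains, had MOE values of 6.2 and 3.01 (WT), 10.3 and 13.1 (Het) and 5.59 and 8.07 (KO), and mOSN values of 11 (WT), 15.9 (Het) and 20.2 (KO), a difference of 1.07 with overlap. Of the CDK inhibitors, Cdkn1a (p21) had 107 to 344 in MOE and 333 to 371 in mOSN (1.12), Cdkn2c had 2.92 to 8.89 and 10.4 to 12.1 (0.99), and Cdkn1b (p27) went the other way, with 53 to 67.8 and 6.36 to 14.9 (-2.78).

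The members with another job had a median of -0.02, with a few far from it. Cdc42ep4 and Cdc42ep2, effectors of Cdc42, were at 11.1% and 11.2% of MOE, and the phosphatase Cdc14b at 23.6%. Aurkaip1, a protein named for binding Aurora A, had MOE values of 35.4 and 28 (WT), 22 and 31.4 (Het) and 33.4 and 20.3 (KO), and mOSN values of 116 (WT), 149 (Het) and 116 (KO). It was the 1 member at least 2-fold higher in all 3 genotypes (2.16). Mcm3ap differed by 0.98, Cdc42 itself by 0.19, the chaperone Cdc37 by 0.41 and the splicing factor Cdc5l by -0.15. The motif and level patterns above were found by looking at these data and were not tested on others.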
